A study of Canis lupus familiaris with 6 samples.

Results

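The cytosolic ribosomal protein genes were followed in CMM12 and CMM2, a pair of canine melanoma cell lines in which podoplanin had been knocked out. They were taken by symbol, as every gene named RPL or RPS with a number, RPLP0 to RPLP2 or RPSA, without the S6 kinases (RPS6K) and the paralogs whose number is followed by an L. That rule uses no measured value. Of 30951 genes in the tables, 70 symbols matched the name patterns, 9 S6 kinases and 3 paralogs were dropped, and 58 genes remained. They comprise 33 genes of the large (60S) subunit and 24 of the small (40S) subunit, with RPS19BP1 as the last member. RPS19BP1 carries the name of its binding partner RPS19 and is known as a regulator of the deacetylase SIRT1, so it is a member by name and not a structural ribosomal protein. RPL17-C18orf32 is a readthrough symbol that joins RPL17 to a neighbouring gene. Several ribosomal protein symbols had no row, among them RPLP1, RPLP2, RPL10, RPL23A, RPL39, RPS2, RPS14, RPS16, RPS19 and RPS29. These are examples and not a full list, and such proteins are not analysed here. The 58 genes, their subunit counts and their shares of a library thus describe an incomplete set of the cytosolic ribosomal proteins.

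Each line was sequenced as podoplanin KO 2, podoplanin KO 1 and a control labelled WT, which gave 6 RNA libraries of 9732927 to 11807835 counts. The labels do not say how the KO lines were made, whether each is a single clone or whether the libraries came from separate cultures, so each p-value reflects no more than the spread among these 6 samples, be it technical or clonal. Podoplanin (PDPN), a mucin-like membrane glycoprotein, stood at 9.98 and 15.2 CPM in CMM12 KO 2 and KO 1, against 87.8 CPM in the CMM12 control, and at 5.58 and 5.59 CPM in CMM2 KO 2 and KO 1, against 20.2 CPM in the CMM2 control (CPM, counts scaled to the library total after TMM correction). Of 9 markers of melanoma and melanocytes, MLANA, TYR, DCT, SOX10 and S100B stayed under 1 TPM in every library, while MITF stood at 10.7 to 21.7 TPM. TYRP1 stood at 2.09 to 3.45 TPM in the CMM12 libraries and at 0 in those of CMM2. S100A1 ranged from 0.33 to 5.61 TPM and PMEL from 0.41 to 1.82 TPM over the 6 libraries. The label melanoma thus rested on few of its usual markers, and on fewer in CMM2. Summed fibroblast and smooth muscle markers (9 of 9 above 1 TPM in some library) came to 1534, 1401 and 2277 TPM in CMM12 KO 2, KO 1 and control, and to 3050, 910 and 378 TPM in CMM2 KO 2, KO 1 and control. Of 6 leukocyte markers, PTPRC, CD3E and LYZ were at 0 in all 6 libraries, CD68 stood at 1.08 to 3.41 TPM and CSF1R at 0.03 to 1.71 TPM, while the row named CD79A was far higher, at 3150 to 4542 TPM.

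Ribosomes are built from ribosomal RNA and about equal molar amounts of each ribosomal protein, so cells keep the output of these genes in step. The mRNAs of most of them begin with a run of pyrimidines, the terminal oligopyrimidine (TOP) motif, through which mTORC1 and LARP1 adjust their translation and stability with growth signals. Free ribosomal proteins are unstable, and RPL5 and RPL11 that are not built into ribosomes bind MDM2 and stabilise p53. Ribosomal protein genes also have many processed pseudogenes, so reads of near-identical copies could have been split or misplaced in counting, and each single-gene value below carries that uncertainty.

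The 58 genes were among the most abundant transcripts in every library. They took 4.82% of counts in CMM12 KO 2 (95% Wilson interval 4.81% to 4.84%), 5.64% in CMM12 KO 1 (5.63% to 5.66%) and 4.78% in the CMM12 control (4.77% to 4.79%). In CMM2 they took 5.53% in KO 2 (5.52% to 5.54%), 6.07% in KO 1 (6.06% to 6.08%) and 6.17% in the control (6.16% to 6.19%). These intervals cover counting error only. CMM12 KO 1 therefore lay among the CMM2 libraries, while the other CMM12 libraries lay below all 3 CMM2 libraries. Because the genes are short (median length 687 bases, against 1816 bases over all genes tested), their share of TPM, which is scaled for length, was larger, at 13.4%, 15.2% and 13.3% in CMM12 KO 2, KO 1 and control and 15.0%, 15.8% and 16.4% in CMM2 KO 2, KO 1 and control. Between 54 and 55 of the 58 genes ranked in the top 200 by TPM in each library. These are shares of a library, so a lower share and less of these RNAs per cell cannot be told apart.

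Levels per length spread over a wide range although the proteins are needed in like amounts. RPS28, a small protein near the mRNA exit of the 40S subunit, had the highest mean level, with 4808, 4648 and 4453 TPM in CMM12 KO 2, KO 1 and control and 6053, 5658 and 5545 TPM in CMM2 KO 2, KO 1 and control. RPS23, which sits at the decoding centre, had 3742, 3998 and 4142 TPM in CMM12 KO 2, KO 1 and control and 6242, 5319 and 5836 TPM in CMM2 KO 2, KO 1 and control. RPL8, next to the peptidyl transferase centre, had 5699, 6471 and 5530 TPM in CMM12 KO 2, KO 1 and control and 3583, 3856 and 3680 TPM in CMM2 KO 2, KO 1 and control. RPS28 and RPS23 were lower in every CMM12 library than in any CMM2 library, and RPL8 was higher in every CMM12 library. The lowest mean levels belonged to RPS19BP1 (145 to 224 TPM over the 6 libraries), RPL35 (547 to 659 TPM) and RPL15 (583 to 747 TPM). RPL35 lies at the rim of the exit tunnel and RPL15 is another 60S protein. RPS19BP1 stood apart below all the structural members.

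**Figure D1:**
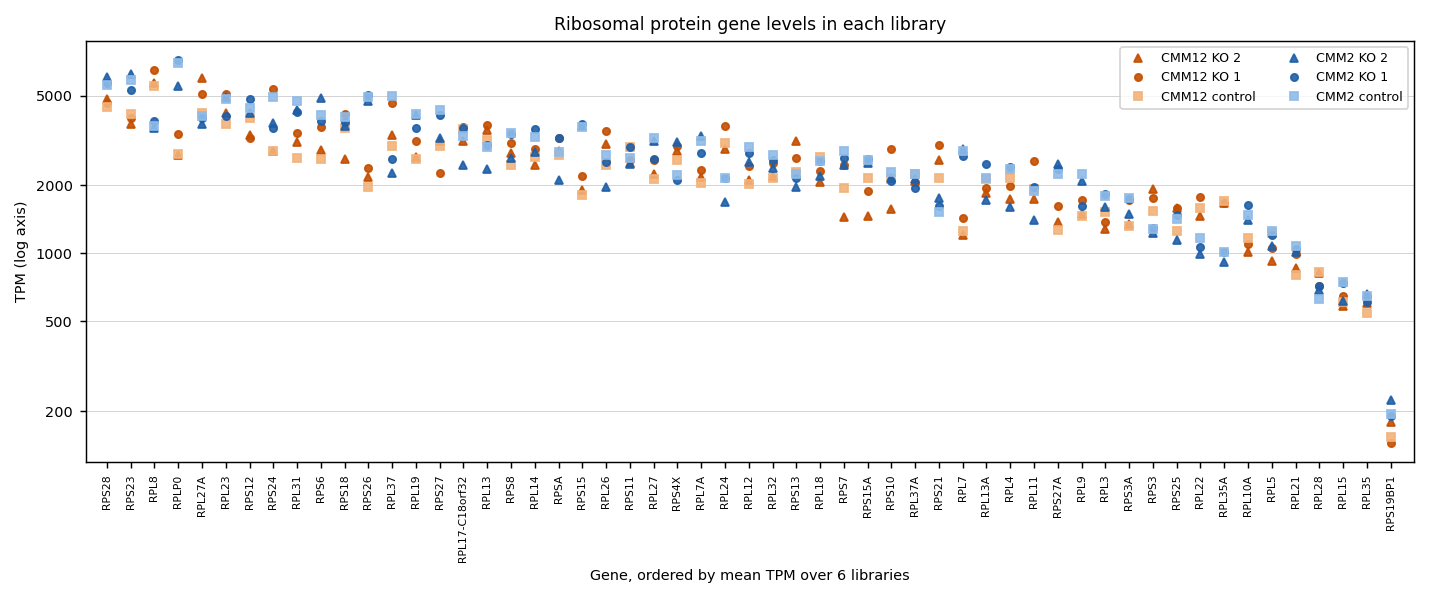
TPM (log axis) of 55 of the 58 genes in each of the 6 libraries, ordered by mean TPM, with CMM12 in orange, CMM2 in blue, triangles for KO 2, circles for KO 1 and squares for controls. RPS28 is highest on average with 4453 to 6053 TPM, RPS19BP1 lies alone at 145 to 224 TPM, and for RPLP0, RPS26, RPL7 and RPL8 the colours separate.

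The mix of ribosomal protein mRNAs was more alike within a cell line than between the lines. Over the 58 genes, log2 TPM correlated between libraries of the same line with r = 0.958 to 0.981 (6 pairs) and between lines with r = 0.820 to 0.880 (9 pairs); each pair shares the gene lengths, and these values describe the libraries without a test. Relative to the median member of each library, RPS26, RPLP0 and RPL35A varied most over the 6 libraries, with SDs of 0.54, 0.54 and 0.53 on the log2 scale. RPL32, RPL21 and RPL15 varied least, with SDs of 0.020, 0.058 and 0.064. RPL32, a 60S protein, had 2203, 2506 and 2168 TPM in CMM12 KO 2, KO 1 and control and 2387, 2594 and 2729 TPM in CMM2 KO 2, KO 1 and control, and so tracked the median member most closely. It ranked 30 of 58 by mean TPM, so it lay beside the median it was compared with. Its small SD was partly built in by that rank.

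Setting the 4 KO libraries against both controls, in a model with a term for the cell line, addressed whether ribosomal protein mRNAs moved with podoplanin loss. None of the 58 genes passed a Benjamini-Hochberg adjusted p of 0.05 by edgeR, where 0% of all 12270 genes tested passed, and none did by DESeq2, which called 9 of all genes (0.0733%). At an unadjusted edgeR p under 0.05 there were 0 members and 495 of all genes. The median member had a log2 fold change of 0.04, with 36 genes higher and 22 lower, against a median of 0.01 over all genes tested. That small positive median rested on single libraries, as it became −0.06 when CMM12 KO 1 was left out, −0.10 when the CMM12 control was and 0.20 when the CMM2 control was. A p that misses the threshold does not show that the levels were equal.

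RPS21, a small 40S protein needed in yeast for maturation of the small ribosomal RNA, had the smallest p across lines. It stood at 131 and 153 CPM in CMM12 KO 2 and KO 1, against 103 CPM in the CMM12 control, and at 90.4 and 89.5 CPM in CMM2 KO 2 and KO 1, against 75.8 CPM in the CMM2 control. Every KO library was above its own control. Its log2 fold change was 0.35 (SE 0.16, edgeR p 0.0621, adjusted p 0.987), so it was not called. RPS27A and RPS4X had positive log2 fold changes too, at 0.20 (SE 0.17) and 0.22 (SE 0.20), although RPS4X in CMM2 KO 1 lay below its control, at 1315 CPM against 1380 CPM. RPS27A is made as a fusion with ubiquitin, and RPS4X is the X-linked copy of the 40S protein eS4. The smallest p-values among genes with lower values belonged to RPL5, RPL4, RPL18 and RPS15A. RPL5, which carries the 5S ribosomal RNA with RPL11, had 599 and 737 CPM in CMM12 KO 2 and KO 1, against 795 CPM in the CMM12 control, and 769 and 883 CPM in CMM2 KO 2 and KO 1, against 924 CPM in the CMM2 control. Although all 4 KO libraries were below their controls, the log2 fold change of −0.21 (SE 0.17) was not called (edgeR adjusted p 0.987).

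By direction, 5 of 58 genes were above their own control in all 4 KO libraries (8.62%, against 10.5% of all genes tested), among them RPS15, RPS21, RPS27A and RPS28. Only RPL5 and RPL37A were below their control in all 4 (3.45%, against 10.6% of all genes). The first share was close to the background, and the second lay under it. The names in these direction counts were chosen after their values were seen, as RPS15 and RPL37A are not among the genes with the smallest p.

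Each KO library set against its own control showed different shifts of the whole group. In CMM12 KO 2 the median member lay 0.03 above the control on the log2 scale, with 33 genes higher and 25 lower, from RPS15A (−0.56) to RPL27A (0.52). In CMM12 KO 1 it lay 0.32 above, with 46 higher and 12 lower, from RPS27 (−0.31) to RPS24 (1.07). CMM12 KO 1 was the library with the widest upward shift of the 4. In CMM2 KO 2 the median was −0.14, with 14 higher and 44 lower, from RPL37 (−1.11) to RPS4X (0.47). In CMM2 KO 1 it was −0.01, with 26 higher and 32 lower, from RPL37 (−0.81) to RPS21 (0.24). The median of all genes tested lay between 0 and 0.01 in these ratios. Changes of 2-fold or more were rare among the members. They were seen for 0 of 58 genes in CMM12 KO 2 (13.2% of all genes), for RPS24 in CMM12 KO 1 (11.7%), for RPL37 in CMM2 KO 2 (12.5%) and for 0 in CMM2 KO 1 (4.61%). With 1 library on each side, these ratios have no replicate check.

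**Figure D2:**
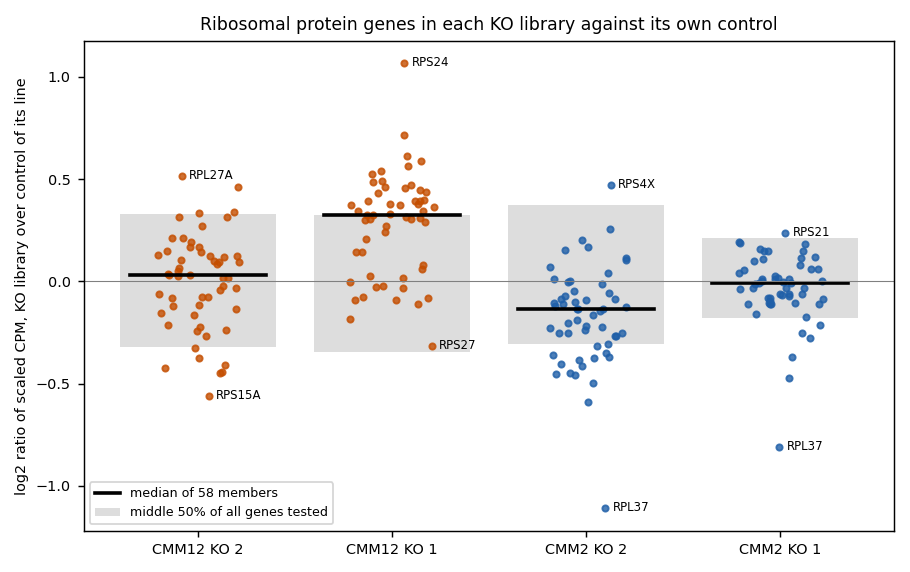
Log2 ratio of TMM-scaled CPM of each KO library over the control of its own line for 55 of the 58 genes (points), with the median of all 58 (black line) and the middle 50% of all 12270 genes tested (grey). The points of CMM12 KO 1 sit highest, with a median of 0.32, and RPL37 lies lowest in both CMM2 KO libraries.

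Within CMM12, none of the 58 genes was called against the control by edgeR (0.00815% of all genes, a single gene, was). None had an unadjusted edgeR p under 0.05, against 735 of all 12270 genes tested. DESeq2 called none of the members and 45 of all genes (0.406%). The median member was at 0.20, with 42 genes higher and 16 lower, against 0.02 over all genes. Without CMM12 KO 1 the median was 0.03 and without CMM12 KO 2 it was 0.32, so the size of the shift differed by library. Both CMM12 KO libraries were above the control for 32 genes (55.2%, against 35.6% of all genes) and below it for 11 (18.97%, against 34.2%). Within CMM2, edgeR called none (0% of all genes), and DESeq2 called none of the members and 6 of all genes (0.0489%). An unadjusted edgeR p under 0.05 was found for 1 member and for 233 of all 12270 genes tested. The median there was −0.10, with 14 genes higher and 44 lower, against 0.00 over all genes, and it was −0.01 without CMM2 KO 2. Both CMM2 KO libraries were below the control for 25 genes (43.1%, against 30.9% of all genes) and above it for 7 (12.1%, against 30.1%). CMM2 KO 2 was also the library with the highest summed fibroblast and smooth muscle markers. In that library the collagen genes COL1A1, COL1A2 and COL3A1 stood at 520, 974 and 1246 TPM. ACTA2, at 1.03 TPM, was at its lowest of the 6 libraries there, and DCN and LUM stood at 0.27 and 0.59 TPM. The part of these markers in the result was not tested.

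RPL37, a short 60S protein, was the member with the unadjusted p under 0.05 in CMM2. It had 165 and 203 CPM in CMM2 KO 2 and KO 1, against 356 CPM in the CMM2 control. In CMM12 it had 234 and 332 CPM in KO 2 and KO 1, against 202 CPM in the control. The KO libraries were thus below the control in CMM2 and above it in CMM12. The log2 fold change was −0.95 (SE 0.29) in CMM2, with an edgeR p of 0.0158 and an adjusted p of 1, and 0.49 (SE 0.31) in CMM12, with an edgeR p of 0.163. The difference between the lines was 1.44 (SE 0.43, edgeR p 0.0139, adjusted p 1.00). RPL37 was the only member with an unadjusted p under 0.05 in that contrast, against 471 of all 12270 genes tested. There edgeR called 0 members and 0% of all genes.

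RPS24, a 40S protein mutated in some cases of human Diamond-Blackfan anaemia, showed how much a single library could carry. It had 584 and 1197 CPM in CMM12 KO 2 and KO 1, against 571 CPM in the CMM12 control, and 810 and 817 CPM in CMM2 KO 2 and KO 1, against 1056 CPM in the CMM2 control. Only CMM12 KO 1 was high in its line. The fitted log2 fold changes were 0.64 (SE 0.43) in CMM12 and −0.38 (SE 0.41) in CMM2, and their difference of 1.02 (SE 0.59) was not called (edgeR adjusted p 1.00). RPL26, which lies at the tunnel exit and binds p53 mRNA in human cells, had 797 and 980 CPM in CMM12 KO 2 and KO 1, against 641 CPM in the CMM12 control, and 564 and 750 CPM in CMM2 KO 2 and KO 1, against 797 CPM in the CMM2 control. Its effects were 0.47 (SE 0.30) and −0.28 (SE 0.29) in CMM12 and CMM2, with a difference of 0.75 (SE 0.41, edgeR p 0.115).

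The pattern of RPL37, RPS24 and RPL26, both CMM12 KO libraries above and both CMM2 KO libraries below their controls, held for 15 of the 58 genes (25.9%, against 11% of all genes tested). The reverse pattern held for 2 genes (3.45%, against 10.2% of all genes), RPL28 of the 60S subunit among them, which was named after its values were seen. The median of the fitted differences was 0.24 over the members and −0.01 over all genes, with 46 members positive and 12 negative. The size of that median depended on CMM12 KO 1 and CMM12 KO 2, as it was 0.069 without KO 1 and 0.38 without KO 2 of that line. No single member passed the adjusted threshold in this contrast, and DESeq2 called 0 members and 22 of all genes (0.179%).

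The comparison of KO 2 with KO 1, with the cell line as a term, gave the most one-sided counts of the 5 KO comparisons. The number is a label, and nothing says that it marks the same guide or clone in both lines. Of the 58 genes, 7 were higher and 51 lower in KO 2, with a median log2 fold change of −0.22, against 0.01 over all genes tested, of which 49.1% were lower. The median was −0.10 when CMM12 KO 1 was left out and −0.32 when CMM2 KO 1 was. EdgeR called none of the members and 0% of all genes, and DESeq2 called none of the members and 27 of all genes (0.26%). At an unadjusted p under 0.05, edgeR gave 2 members, both lower, and 560 of all genes. Taken by line, the median ratio of KO 2 over KO 1 was −0.29 in CMM12, with 7 genes higher and 51 lower, and −0.13 in CMM2, with 17 higher and 41 lower. KO 2 was below KO 1 in both lines for 36 genes (62.1%, against 23.9% of all genes tested) and above in both for RPS19BP1 and RPS28 (3.45%, against 25.2%). The members furthest down differed between the lines, as the ratios correlated with r = 0.03 over the 58 genes.

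RPL11, the partner of RPL5 in the 5S particle, had the smallest p in this comparison. It had 640 CPM in KO 2 and 1025 CPM in KO 1 of CMM12, with 712 CPM in the control of that line. In CMM2 it had 572 CPM in KO 2 and 816 CPM in KO 1, with 783 CPM in the control. KO 2 was the lowest and KO 1 the highest library in each line. The log2 fold change of KO 2 over KO 1 was −0.60 (SE 0.20, edgeR p 0.0216, adjusted p 0.943). RPL4, whose extension lines the exit tunnel, had 1709 CPM in KO 2 and 2133 CPM in KO 1 of CMM12, and 1765 CPM in KO 2 and 2678 CPM in KO 1 of CMM2. It differed by −0.46 (SE 0.18, edgeR p 0.0434, adjusted p 0.943). RPSA, a 40S protein also known as the laminin receptor, had 1876 CPM in KO 2 and 2342 CPM in KO 1 of CMM12, and 1561 CPM in KO 2 and 2433 CPM in KO 1 of CMM2, a difference of −0.47 (SE 0.20, edgeR p 0.0518). RPL17-C18orf32 differed by −0.44 (SE 0.19, edgeR p 0.0558).

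The members with the lowest ratios of KO 2 over KO 1 in CMM12 were named after their values were seen, and so was RPS4X, and the difference between the lines was not tested for them. In CMM12 the ratio of KO 2 over KO 1 on the log2 scale was −1.03 for RPS24, −0.98 for RPS10, −0.87 for RPS7 and −0.77 for RPS18, all of the 40S subunit. RPS24 was the only member past a 2-fold difference there (10.5% of all genes were), and 0 members were in CMM2 (10.7%). In CMM2 the same genes were at −0.01, −0.01, −0.13 and −0.10. RPS4X had 1598 CPM in KO 2 and 1794 CPM in KO 1 of CMM12, and 1915 CPM in KO 2 and 1315 CPM in KO 1 of CMM2, so it was lower in KO 2 of CMM12 and higher in KO 2 of CMM2. These single-library ratios have no test.

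**Figure D3:**
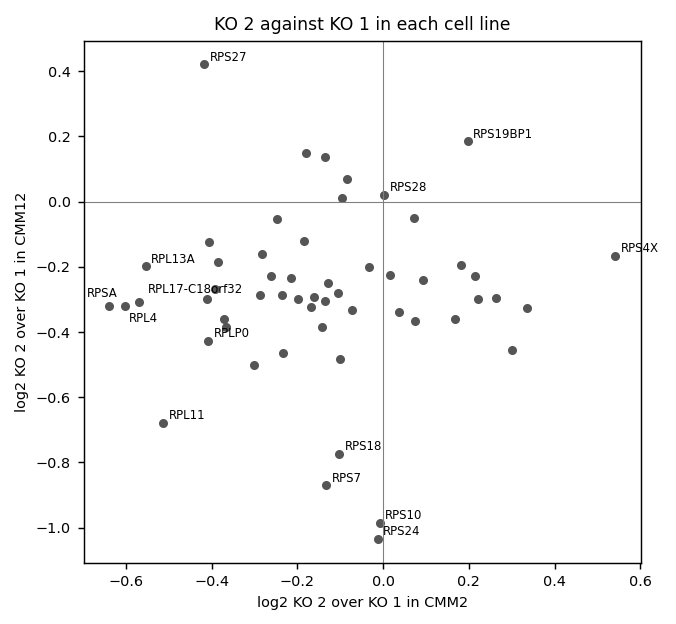
Log2 ratio of KO 2 over KO 1 for 55 of the 58 genes in CMM12 (vertical) and CMM2 (horizontal). Most points lie below 0 on both axes, and no diagonal trend is visible (r = 0.03), with RPS24 and RPS10 low in CMM12 and RPSA low in CMM2.

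Between CMM12 and CMM2, with the genotype as a term, 17 of the 58 genes passed an edgeR adjusted p of 0.05 (29.3%, against 25.8% of all genes tested), a share near the background. The direction was uneven. Lower in CMM12 were 14 genes (24.1%, against 11.2% of all genes called lower), and higher were 3 genes (5.17%, against 14.6%). The lower ones comprised 7 genes of the 60S and 7 of the 40S subunit, and the higher ones 2 of the 60S and 1 of the 40S subunit. The median member differed by −0.28 (−0.43 without CMM12 KO 1) and the median of all genes by 0.04. At an unadjusted edgeR p under 0.05 there were 23 members lower and 5 higher, against 2203 lower and 2703 higher of all 12270 genes tested. DESeq2 called 21 members lower and 5 higher (14.5% and 17.7% of all genes). The count of 17 fell to 4 when the CMM12 control was left out, to 5 for CMM12 KO 2, to 4 for the CMM2 control and to 6 for CMM2 KO 1, and 12.3% to 14.2% of all genes were called in those fits. RPS26, RPLP0, RPL7 and RPS15 were called in all 18 settings run.

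RPS26, which lines the mRNA exit channel and is mutated in some cases of human Diamond-Blackfan anaemia, had the largest difference of all members. It had 674, 801 and 611 CPM in CMM12 KO 2, KO 1 and control, against 1612, 1762 and 1712 CPM in CMM2 KO 2, KO 1 and control. The lines did not overlap. Means were 696 ± 96.9 CPM in CMM12 and 1695 ± 75.9 CPM in CMM2 (SD, n = 3 each, 2 KO libraries and 1 control). These 3 libraries are not replicates of a condition, so the SD includes differences between KO and control. The log2 fold change was −1.29 (SE 0.16, edgeR adjusted p 0.00244).

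RPLP0, the base of the stalk through which the 60S subunit recruits elongation factors, is also widely used as a reference gene in PCR assays. It had 1120, 1506 and 1144 CPM in CMM12 KO 2, KO 1 and control, against 2571, 3412 and 3183 CPM in CMM2 KO 2, KO 1 and control. No library of CMM12 reached the lowest of CMM2. The log2 fold change was −1.28 (SE 0.19, edgeR adjusted p 0.00468). Within each line KO 2 was lower than KO 1, and the log2 fold change of KO 2 over KO 1 was −0.42 (SE 0.19, edgeR p 0.0607).

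RPL7, a 60S protein, had 927, 1194 and 968 CPM in CMM12 KO 2, KO 1 and control, against 2469, 2346 and 2477 CPM in CMM2 KO 2, KO 1 and control. The lines were apart in every library, with a log2 fold change of −1.24 (SE 0.16, edgeR adjusted p 0.00292). RPS15, at the 40S head beside the decoding site, had 224, 272 and 210 CPM in CMM12 KO 2, KO 1 and control, against 460, 494 and 458 CPM in CMM2 KO 2, KO 1 and control. It differed by −1.003 (SE 0.16, edgeR adjusted p 0.00523), again with no overlap.

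RPS27A averaged 380 ± 65.1 CPM in CMM12 and 686 ± 28.1 CPM in CMM2 (SD, n = 3 each, 2 KO libraries and 1 control), a log2 fold change of −0.86 (SE 0.16, edgeR adjusted p 0.00966). It was lower in every CMM12 library than in any CMM2 library, and the same held for RPS23, at −0.67 (SE 0.15). RPS6, the 40S protein that S6 kinase phosphorylates downstream of mTORC1, had 1441, 1977 and 1316 CPM in CMM12 KO 2, KO 1 and control, against 2713, 2205 and 2357 CPM in CMM2 KO 2, KO 1 and control. It was called at −0.63 (SE 0.19, edgeR adjusted p 0.0453) but in 8 of the 18 settings. Of the other lower genes, RPL31, RPL7A, RPS15A, RPL19 and RPL10A differed by −0.65 to −0.59.

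Against this direction, 3 members were higher in CMM12. RPL35A, a 60S protein also linked to human Diamond-Blackfan anaemia, had 582, 633 and 599 CPM in CMM12 KO 2, KO 1 and control, against 352, 400 and 401 CPM in CMM2 KO 2, KO 1 and control. Its log2 fold change was 0.65 (SE 0.15, edgeR adjusted p 0.0182). RPS21 averaged 129 ± 24.8 CPM in CMM12 and 85.3 ± 8.18 CPM in CMM2 (SD, n = 3 each, 2 KO libraries and 1 control), a change of 0.59 (SE 0.15, edgeR adjusted p 0.0269). RPL8 had 2792, 3449 and 2720 CPM in CMM12 KO 2, KO 1 and control, against 1948, 2141 and 2050 CPM in CMM2 KO 2, KO 1 and control. Its change was 0.54 (SE 0.16, edgeR adjusted p 0.042). None of the 3 overlapped between the lines, but RPL35A, RPS21 and RPL8 were called in 13, 11 and 9 of 18 settings.

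**Figure D4:**
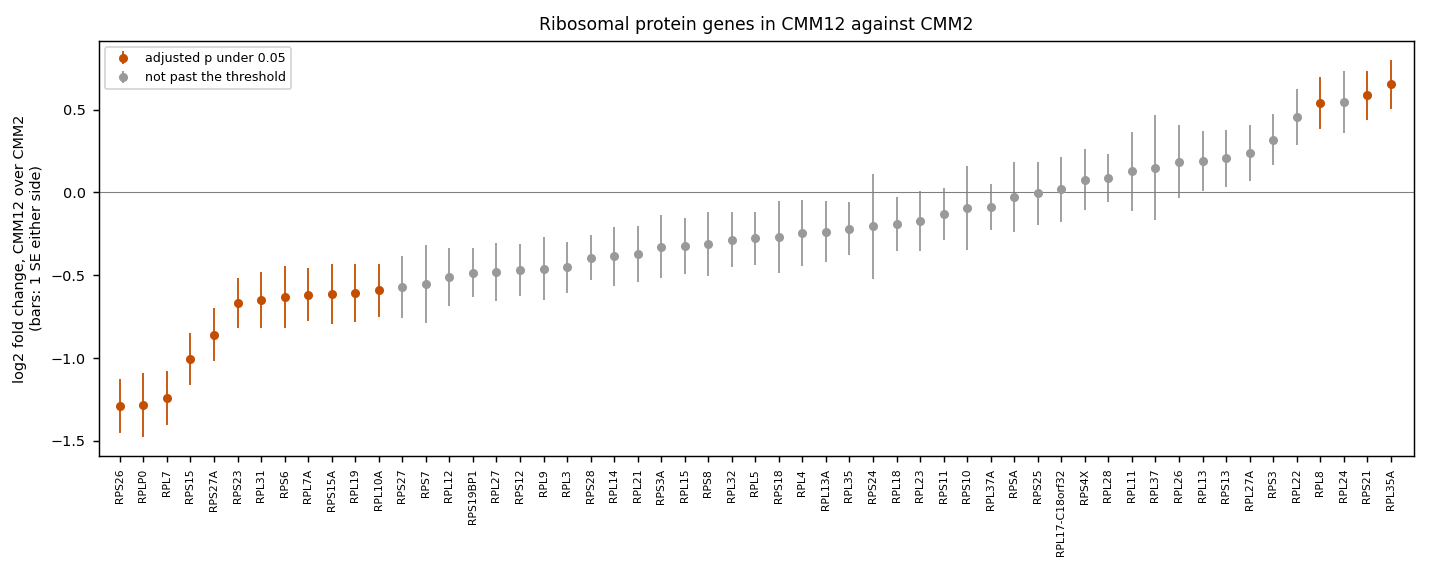
Log2 fold change of CMM12 over CMM2 for 55 of the 58 genes with bars of 1 SE either side, ordered by value, with genes past an edgeR adjusted p of 0.05 in orange. The 12 called genes on the left run from −1.29 (RPS26) to −0.59 (RPL10A), and the 3 on the right are RPL8, RPS21 and RPL35A.

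Counted by library, every CMM12 library lay below every CMM2 library for 23 genes (39.7%, against 21.5% of all genes tested) and above for 6 (10.3%, against 24.6%). Those 6 were RPL22, RPL24, RPL35A, RPL8, RPS21 and RPS3, of which RPL22, RPL24 and RPS3 are named after their values were seen. The line difference could be taken from 3 separate pairs of libraries. The median of CMM12 over CMM2 was −0.31 between the KO 2 libraries, −0.15 between the KO 1 libraries and −0.43 between the controls. The ratio was negative in all 3 pairs for 34 genes, positive in all 3 for 6 and mixed for 18. That count was not made over all genes tested, so it has no background here. In the single pairs 47.5% to 48.1% of all genes were lower in CMM12. Over the 58 genes the ratios of the 3 pairs, which share no library, correlated with r = 0.76 (KO 2 and KO 1), 0.80 (KO 2 and controls) and 0.69 (KO 1 and controls). Differences of 2-fold or more were seen for 4 members between the KO 2 libraries (28% of all genes), 2 between the KO 1 libraries (26.4%) and 4 between the controls (26.3%). RPS26 was at −1.26, −1.14 and −1.49 in the KO 2, KO 1 and control pairs, while RPL37 was at 0.51, 0.71 and −0.82, so the direction of RPL37 differed in the control pair.

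Groups defined by role held values of both signs in the comparison of the lines. Of 6 genes at the exit tunnel and its rim, 2 were called lower (RPL31 and RPL19) and 2 had positive values. Among 7 genes of the 40S beak and platform, 2 were called lower, RPS26 among them, and RPS21 was called higher. RPL5 and RPL11 of the 5S particle differed by −0.28 (SE 0.16) and 0.13 (SE 0.24), and neither was called. Of 17 genes listed for human Diamond-Blackfan anaemia, an inherited failure of red cell production, 4 were called lower and 1 higher, where 11.2% of all genes tested were called lower and 14.6% higher. In the KO comparison across lines 10 of these 17 were higher and 7 lower, with none called.

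The position of the genes on the chromosomes was described from the gene order of the RefSeq table (assembly UU_Cfam_GSD_1.0, which is not the build of the counts), with up to 5 tested genes taken on each side. Of the 17 called members, 14 had neighbours whose median line difference had the same sign as the member (82.4%, against 78.5% of 2811 called genes that could be placed). RPL8 and RPL35A had 10 of 10 neighbours higher in CMM12, with medians of 1.02 and 1.13. RPS6 and RPL10A had neighbours of the other sign, with medians of 0.65 and 0.26. Over 57 placed members the line difference correlated with the median of the neighbours at r = 0.73 (Spearman 0.67), and over 10482 placed genes at r = 0.22 (Spearman 0.43). The members' value was above that over all placed genes in each KO comparison too. It ran from r = 0.33 (0.11 over all placed genes) for KO within CMM2 to 0.62 (0.19) for KO across lines. Neighbouring windows overlap and share libraries, so these are descriptions with no test. The share of called members with neighbours of the same sign was close to that over all called genes.

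**Figure D5:**
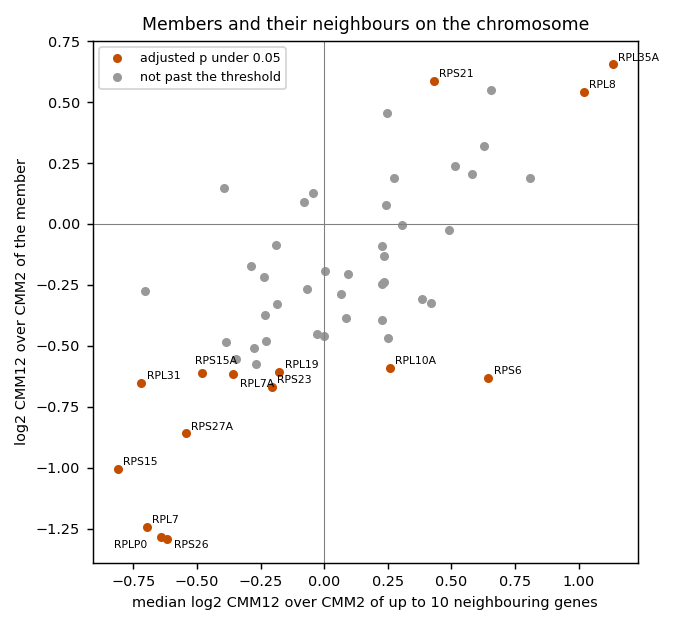
Log2 difference of CMM12 over CMM2 for 54 of 57 placed members (vertical) against the median of the same value over up to 10 neighbouring genes (horizontal), with called members in orange. Most called members share the sign of their neighbours, and RPS6 and RPL10A lie at the lower right, below 0 with neighbours above 0.

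Other genes of the ribosome pathway were read from lists beside the members. Ribosome assembly factors, which process ribosomal RNA and build the subunits, lay mostly below the controls in KO libraries. Across lines 42 of 44 had lower values in KO libraries (48.0% of all genes were), with a median of −0.22, and none was called by edgeR (0%). LTV1, a 40S assembly factor, had 92.5 and 109.6 CPM in CMM12 KO 2 and KO 1, against 147 CPM in the CMM12 control, and 110.5 and 123 CPM in CMM2 KO 2 and KO 1, against 143 CPM in the CMM2 control. It was lower in every KO library, with a log2 fold change of −0.42 (SE 0.16, edgeR p 0.0349, adjusted p 0.987). RIOK2, a kinase of late 40S maturation, and NCL (nucleolin) were at −0.38 (SE 0.15) and −0.38 (SE 0.16). By library the median assembly factor stood at −0.28 and −0.04 in CMM12 KO 2 and KO 1 and at −0.38 and −0.16 in CMM2 KO 2 and KO 1, where the median ribosomal protein gene stood at 0.03, 0.32, −0.14 and −0.01. Of 14 genes of the RNA polymerase I machinery, 10 were lower across lines, and RRN3, its initiation factor, was at −0.36 (SE 0.15, edgeR p 0.0428). Of 61 mitochondrial ribosomal proteins, 42 were lower, with a median of −0.07.

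Other TOP mRNAs also lay mostly lower in the comparison of KO numbers. Of 19, 18 had lower values in KO 2 than in KO 1, with a median of −0.28, and none was called. Assembly factors were lower in KO 2 for 40 of 44 and mitochondrial ribosomal proteins for 42 of 61, against 49.1% of all genes. Between the lines edgeR called 2 of the 19 higher and 4 lower in CMM12, where 14.6% of all genes tested were called higher and 11.2% lower. TPT1, a growth-related protein, had 653, 789 and 630 CPM in CMM12 KO 2, KO 1 and control, against 1734, 1555 and 1371 CPM in CMM2 KO 2, KO 1 and control, a difference of −1.17 (SE 0.16, edgeR adjusted p 0.0031). RACK1, a scaffold bound to the 40S subunit, ran the other way at 0.74 (SE 0.18, edgeR adjusted p 0.0253). Among regulators, MYC, which drives transcription of ribosome genes, was higher in CMM12 at 0.81 (SE 0.15, edgeR adjusted p 0.00859), and RPTOR, a subunit of mTORC1, was lower at −1.21 (SE 0.18, edgeR adjusted p 0.00404). Of 7 tested genes of p53 and its sensing of ribosome stress, 5 had lower and 2 higher values in CMM12, with a median of −0.50. Of these, 2 were called lower and 0 higher. The p53 target CDKN1A was lower in CMM12 at −3.25 (SE 0.36, edgeR adjusted p 0.00174) and MDM2 at −1.25 (SE 0.15, edgeR adjusted p 0.00223). The genes with positive values, RRM2B at 0.98 (SE 0.33, edgeR adjusted p 0.0669) and SESN1 at 0.76 (SE 0.30), were not called. ZMAT3, at −0.13 (SE 0.23), was not called either. Across lines CDKN1A was at 1.26 in KO libraries (SE 0.38, edgeR p 0.0114, adjusted p 0.987) and was not called.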

How the data were processed

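RNA of 6 libraries was analysed, grouped by the titles of the labels. The authors deposited expected counts, which are estimated counts per gene, per the file headers. They also deposited TPM values, per the file headers, which are scaled for transcript length within a library. The submitters' processing notes name CanFam3.1 as the build, with RSEM 1.3.3 and STAR 2.7.3a among the tools. Nothing used here states the strand setting, so antisense reads cannot be told apart. Where rows shared a symbol, the row with the highest mean count was used. The 58 genes and all lists were chosen with earlier results of these data known. The name rule was read so that RPL3 to RPL9 stay in; a literal reading would drop 6 of them.

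Expected counts were rounded, which changed 3.22% to 3.63% of values in a library. The test was edgeR 4.0.16 (quasi-likelihood, R 4.3.3) with TMM factors and filterByExpr, adjusting p by Benjamini-Hochberg over the 12270 genes that passed, with a threshold of 0.05. All 58 members were kept; the lowest of their counts was 670. KO across lines and CMM12 against CMM2 came from an additive model of line and genotype (3 residual degrees of freedom), KO within a line and the difference of KO effects from 4 group means (2 residual degrees of freedom). There the spread comes from the KO pairs of both lines, and a line's only control is taken to vary as they do. A KO library whose partner is left out is taken to vary as the remaining KO pair does. KO 2 against KO 1 came from a model of line and number. Single-library ratios used TMM-scaled CPM with a prior count of 2.

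Members were named where called, up to 8 in each direction by size, or else the 4 with the smallest p in each direction, with the extremes of level and of variability and the members of small role lists. Results of 3 single members are not reported here, although they enter all counts and medians. Others are said to be chosen after their values were seen. Alternatives included DESeq2 1.42.0 (shares over genes given an adjusted p), limma 3.58.1 on log2(TPM + 1) and log2(TPM + 0.1), other scalings and filters, and leaving out each library.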

Additional observations from a re-analysis of the deposited data

Results flagged for a closer look

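The median ribosomal protein gene lay on different sides of the control in CMM12 and CMM2. In CMM12 KO 2 (33 genes higher, 25 lower) and CMM2 KO 1 (26 higher, 32 lower) it lay close to the control. Both KO libraries of a line were set against the same control, so their ratios are not independent. The median member was above the control in both CMM12 KO libraries (0.03 and 0.32 on the log2 scale in KO 2 and KO 1) and below it in both CMM2 KO libraries (−0.14 and −0.01 in KO 2 and KO 1). The means of these medians differed by 0.251 between CMM12 and CMM2. This difference over the group was not tested. The median of the fitted differences per gene, 0.24, was 0.069 without CMM12 KO 1. Per gene, edgeR called 0 of 58 in the test of the difference (0% of all genes). An unadjusted p under 0.05 was found there for 1 member and for 471 of all 12270 genes tested.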

How the results depend on the processing

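Calls in the 5 KO comparisons were 0 in every alternative run. The line count of 17 was 26 with DESeq2, which called 3951 of all 12270 genes. It was 6 with limma on log2(TPM + 1) without a filter, for which no share over all genes is given here. When libraries were left out in turn it ran from 4 to 13, and 12.3% to 25.4% of all genes were called. Median fold changes moved by less than the spread of the KO libraries (SD 0.18) in all 100 alternatives, although with libraries left out in turn the median ran from −0.10 to 0.20 across lines, from 0.069 to 0.38 for the difference of KO effects and from −0.32 to −0.10 for KO 2 against KO 1. Of the single members, with libraries left out in turn, RPS4X ran from −0.073 (without CMM2 KO 2) to 0.473 in KO against control of CMM2 and from −0.076 (without CMM2 KO 1) to 0.457 in KO 2 against KO 1. The cause was not tested. The share of the library depended on the unit, at 13.4%, 15.2% and 13.3% of TPM in CMM12 KO 2, KO 1 and control and 15.0%, 15.8% and 16.4% in CMM2 KO 2, KO 1 and control. With the KO number as a replicate block, 17 members were called between lines (16 of them shared with the main result) and 0 across lines. KO 2 over KO 1 correlated between lines with r = 0.06 over all genes. Whether libraries of the same number share more than the label was not tested. The lowest count of a member was 670, and each line has 1 control. A literal reading of the name rule, an alternative added after seeing the data, leaves 52 members. Of these, 15 were called between lines, where 25.8% of all genes tested were called.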

Other observations

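RPL22L1, the paralog of the 60S protein RPL22, had 5.58, 8.66 and 7.25 CPM in CMM12 KO 2, KO 1 and control, against 63.6, 39.9 and 42.4 CPM in CMM2 KO 2, KO 1 and control. The log2 fold change of CMM12 over CMM2 was −2.75 (SE 0.28, edgeR adjusted p 0.00141). RPL22 itself ran the other way, with 415, 542 and 449 CPM in CMM12 KO 2, KO 1 and control, against 311, 344 and 371 CPM in CMM2 KO 2, KO 1 and control, a difference of 0.46 (SE 0.17, edgeR adjusted p 0.0879) that was not called. RPL22 was chosen here after its values were seen. In mouse cells RPL22 is known to repress RPL22L1.

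Among mitochondrial ribosomal proteins, 4 of 61 were called higher and 12 lower in CMM12 than in CMM2, where 14.6% of all genes tested were called higher and 11.2% lower. MRPL21 and MRPL15 were lower, at −1.49 (SE 0.19) and −1.09 (SE 0.15), and MRPL47 was higher, at 1.32 (SE 0.22), with edgeR adjusted p-values of 0.00279, 0.00342 and 0.00607.

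The row named CD79A, a B cell receptor chain, was at 3150, 3276 and 3818 TPM in CMM12 KO 2, KO 1 and control and at 3497, 4542 and 4175 TPM in CMM2 KO 2, KO 1 and control, while of the other leukocyte markers PTPRC, CD3E and LYZ were at 0, CD68 at 1.08 to 3.41 TPM and CSF1R at 0.03 to 1.71 TPM. Only 9 ribosomal protein genes had a higher mean TPM. In the RefSeq table (UU_Cfam_GSD_1.0) 0 genes lie between CD79A and RPS19, and 0 rows carry the symbol RPS19. Whether reads of RPS19 were counted in that row was not tested.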
